A study of Mus musculus with 8 samples.

Results

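The genes of serine synthesis and of the transcriptional response driven by ATF4 were examined in mouse liver, as 10 genes chosen by name (Psat1, Phgdh, Psph, Shmt2, Mthfd2, Asns, Atf4, Atf5, Ddit3 and Trib3). The platform annotation pairs 22 probe sets with exactly 1 of these genes, out of 22626 probe sets that are not controls, and all 22 were used. Livers came from 4-week-old female C57BL/6J mice, 4 labelled TrxR1/Gsr-null and 4 labelled wild type (WT), all untreated and taken in late morning, with 1 array per liver. TrxR1 is the cytosolic thioredoxin reductase, encoded by Txnrd1, and Gsr is glutathione reductase, so the label names livers that lack both NADPH-dependent routes by which the cytosol reduces disulfides. The labels give no allele, no Cre driver and no cell type for the loss, and the comparison was of whole livers. In whole liver, fewer cells of a type and less RNA per cell cannot be told apart.

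Serine is made from the glycolytic intermediate 3-phosphoglycerate in a short chain of reactions, by the dehydrogenase PHGDH, the aminotransferase PSAT1 and the phosphatase PSPH. The mitochondrial enzymes SHMT2 and MTHFD2 then pass its side-chain carbon to folate, which yields glycine and one-carbon units. ATF4 is a basic leucine zipper factor whose mRNA is translated more when eIF2α is phosphorylated under amino acid shortage, unfolded protein or heme shortage, so that its protein can rise without its mRNA. Its known targets include the serine genes, the asparagine synthetase gene Asns, the related factor gene Atf5, Ddit3, which encodes the stress factor CHOP, and Trib3, which encodes a pseudokinase that restrains the pathway.

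ATF4 is known to bind composite elements that join a C/EBP site to an ATF site. For this reason the start regions of Psat1, Trib3 and Asns are shown here. They are credited to RefSeq, build GRCm38.p6, and each window runs from 250 bases before to 50 bases after the annotated start, 5′ to 3′ on the strand of the gene. Capitals mark 2 kinds of run, the 8 letters TGATGNAA or their reverse complement, which is a written form of the composite element, and the 12 letters TGGTGCAATCCC, the longest run common to the Psat1 and Trib3 windows, chosen after the sequences were read. The windows are Psat1 at chr19:15925010-15925309 (minus strand), Trib3 at chr2:152344011-152344310 (minus strand) and Asns at chr6:7693160-7693459 (minus strand).
Psat1: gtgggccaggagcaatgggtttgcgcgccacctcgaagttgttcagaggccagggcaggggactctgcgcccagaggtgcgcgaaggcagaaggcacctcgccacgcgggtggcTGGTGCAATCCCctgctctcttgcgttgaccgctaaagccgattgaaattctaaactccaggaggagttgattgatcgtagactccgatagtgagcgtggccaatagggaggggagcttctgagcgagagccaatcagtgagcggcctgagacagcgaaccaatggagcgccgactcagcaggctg
Trib3: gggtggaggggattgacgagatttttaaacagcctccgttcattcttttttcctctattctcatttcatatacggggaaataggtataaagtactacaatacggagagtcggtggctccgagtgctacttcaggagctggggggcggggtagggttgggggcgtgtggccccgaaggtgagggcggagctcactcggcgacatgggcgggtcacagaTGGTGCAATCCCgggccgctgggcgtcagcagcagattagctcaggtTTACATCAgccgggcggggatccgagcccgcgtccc
Asns: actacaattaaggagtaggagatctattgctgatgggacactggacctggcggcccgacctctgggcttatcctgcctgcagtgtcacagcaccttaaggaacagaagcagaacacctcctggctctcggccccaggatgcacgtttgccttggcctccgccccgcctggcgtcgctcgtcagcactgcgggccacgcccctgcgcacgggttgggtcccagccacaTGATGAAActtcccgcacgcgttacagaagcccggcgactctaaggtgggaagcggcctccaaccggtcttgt

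On either strand TGATGNAA was found in 3.97% of 32851 windows of this length, and in 2 of the 12 windows of the 10 genes. These were the Asns window, where its first base lies at position -23 relative to the start, and the Trib3 window, where it lies at position 15 on the reverse strand. The run TGGTGCAATCCC lies at -136 in the Psat1 window and at -33 in the Trib3 window, overlaps no TGATGNAA, and occurs in 4 of the 32851 windows in all. It was picked because the Psat1 and Trib3 windows share it, so these 2 matches were fixed by the choice. The Psat1 window also holds CCAAT 3 times as written, whereas 37.4% of windows hold CCAAT at least once on either strand and 0.871% hold it at least 3 times as written. A second annotated Psat1 start and the windows of the other 7 genes, which are not shown, hold neither capitalised run. The windows shown are thus the ones that hold a run, and of their genes only Psat1 was called. This choice of windows cannot link the values of a gene to a run. A match describes the letters only, and no binding was measured.

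Values are log2 expression after GCRMA, a method that corrects background and summarizes probe sets. A gene was tested when it stood above a low-value limit of 3.38 (the upper end of the lowest 40% of genes by mean, with genes also kept if at least 4 arrays exceeded it), which kept 7534 of 12393 genes. The test was limma with Benjamini-Hochberg adjustment over all genes tested, with calls made below an adjusted p of 0.05. By this rule 4.47% of genes tested were called higher in TrxR1/Gsr-null liver and 2.15% were called lower, 6.62% in all. Of these 499 calls 67.5% were higher, and 53.5% of 585 were higher after quantile normalization. Of the targeted genes Gsr was lower in the null livers, at 5.82 to 6.31 against 7.03 to 7.21 in WT (2.23-fold, adjusted p = 0.00397). The Txnrd1 probe set above the limit goes against a loss of its mRNA, at 11.65 to 12.07 in the livers labelled TrxR1/Gsr-null and 9.56 to 9.93 in WT (4.31-fold higher). The deleted exons are not given in the labels, so these probe sets may lie outside them and then check nothing. Hepatocyte markers stood at 9.79 or more on all 8 arrays, and none of the 8 was called. Of those 8, 7 had lower means in the null livers (median difference -0.29), and their summed log2 values ran from 101.5 to 104.8 there, against 105.5 to 106.8 in WT, without overlap. Endothelial markers had a median difference of -0.60, with 4 of 5 negative and none called. The part of these shifts in the results was not tested. The 5 lymphocyte markers on the array reached at most 3.44. The bile duct marker Epcam was called higher, at 3.87 ± 0.34 in the null livers and 2.93 ± 0.33 in WT (SD, n = 4 each). Its WT values reached at most 3.31, below the low-value limit, so this difference rests on WT values near background. The other tested bile duct marker, Sox9, differed by -0.19 and was not called. Summed log2 values of the bile duct markers overlapped, at 12.2 to 13.6 in the null livers and 10.8 to 13.8 in WT. The part of Epcam in the results was not tested.

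Of the 10 genes, 8 passed the limit, 1 was called higher and none was called lower. The called gene was Psat1. The median difference of the 8 was 0.81 on the log2 scale, against 0.096 over all genes tested, with 5 of the 8 differences positive against 4526 of 7534. Without TrxR1/Gsr-null replicate 4 the median of the 8 was 0.32, against 0.0994 over all genes tested. Phgdh and Mthfd2 did not pass, so they gave no test of the pathway's first step or of its mitochondrial folate step. In tests of this size on simulated data, 32.8% of genes changed by 1 log2 unit and 87.9% of those changed by 2 were called, so a difference of that size can be missed.

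**Figure D1:**
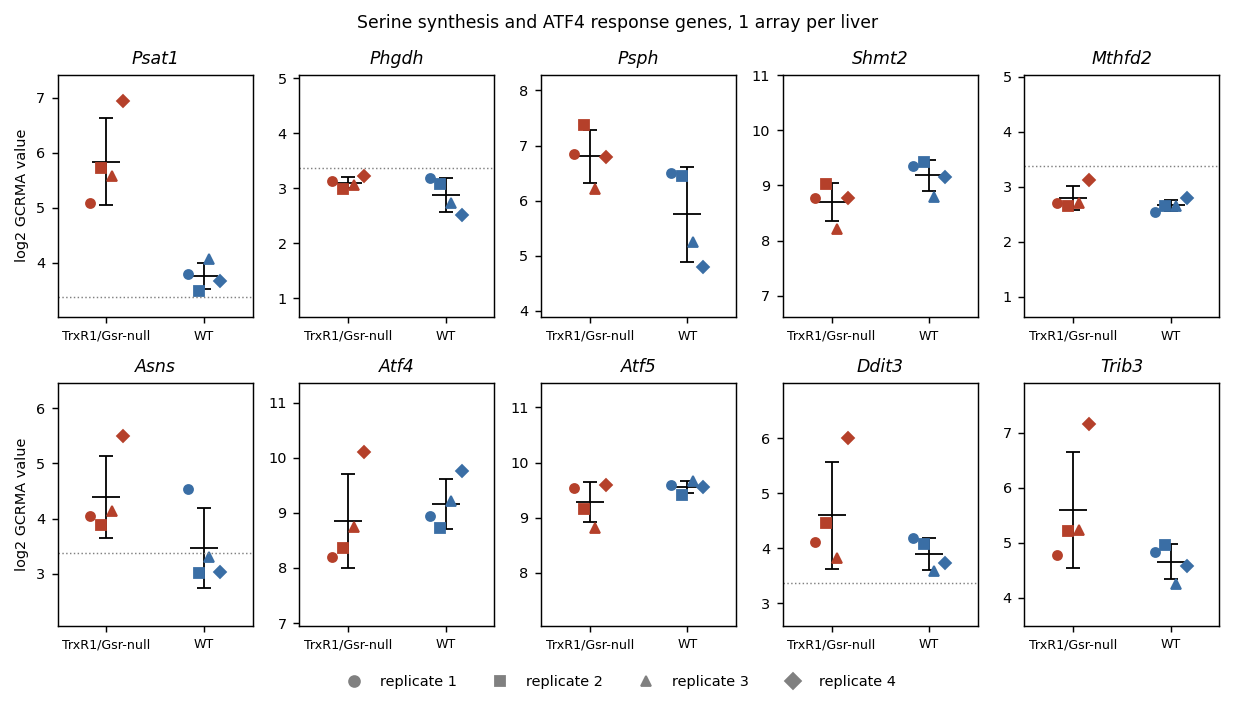
Log2 GCRMA value of each gene (vertical axes, each spanning at least 4 log2 units) on the 4 TrxR1/Gsr-null arrays (red, left) and the 4 WT arrays (blue, right), with the marker shape giving the replicate number, bars the mean and SD, and a dotted line at the low-value limit of 3.38. Psat1 is the only one of the 10 whose groups do not overlap, and among the 8 tested genes TrxR1/Gsr-null replicate 4 (diamond) is the highest array for Psat1, Asns, Atf4, Ddit3 and Trib3.

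Psat1, the aminotransferase of serine synthesis, rose in the null livers. Its values were 5.09, 5.72, 5.57 and 6.94 in TrxR1/Gsr-null replicates 1 to 4, against 3.80, 3.49, 4.06 and 3.68 in WT replicates 1 to 4. Every null value lay above every WT value, a pattern shown in that direction by 10.7% of genes tested. The means were 5.83 ± 0.79 in the null livers and 3.76 ± 0.24 in WT (SD, n = 4 each). The difference was 2.07 ± 0.35 (SE) on the log2 scale, 4.21-fold, with a 95% interval of 1.30 to 2.85 and a limma adjusted p of 0.00667. The WT values stood only a little above the low-value limit, so the size of this fold rests on WT values near background. The other Psat1 probe set had values of 5.09, 5.20, 4.64 and 6.37 in the null livers, against 3.31, 2.58, 2.17 and 2.63 in WT. There all WT values lay below the low-value limit, so its fold of 6.30 rests on values near background. That probe set was called too when all probe sets were tested without a filter (adjusted p = 0.00517), a rule by which 2.09% of probe sets were called higher and 0.888% lower. Both Psat1 probe sets can match more than 1 transcript by their name suffix. The call held with each array left out in turn (adjusted p from 0.00455 to 0.0203), and the difference was 1.70 without TrxR1/Gsr-null replicate 4. Within replicates 1 and 2 alone it was 1.76, and within replicates 3 and 4 alone it was 2.39 with adjusted p = 0.0578.

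Phgdh, the enzyme that commits 3-phosphoglycerate to serine, stayed near background on every array. Its 4 single-gene probe sets ranged from 2.47 to 3.22 in the null livers and from 2.24 to 3.19 in WT. None of the 4 passed 3.38 on any array, and their differences lay between 0.04 and 0.22. A further 2 probe sets, each shared by Phgdh with a predicted gene, were left out, with means of 2.28 and 2.72 in the null livers and 2.26 and 2.72 in WT.

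Psph, the phosphatase that releases serine, was higher in mean in the null livers without being called. Its values were 6.85, 7.37, 6.21 and 6.79 in TrxR1/Gsr-null replicates 1 to 4, against 6.50, 6.45, 5.24 and 4.80 in WT replicates 1 to 4. The groups overlap, since null replicate 3 lies below WT replicates 1 and 2. The means were 6.80 ± 0.48 in the null livers and 5.75 ± 0.86 in WT (SD, n = 4 each), a difference of 1.05 with a 95% interval of 0.16 to 1.95 and adjusted p = 0.156. The null animal was higher in 4 of 4 same-numbered pairs, by 0.35, 0.93, 0.96 and 1.98. The labels do not pair the animals, so such pairs rest on the replicate number alone. With the replicate number as a block Psph was called (adjusted p = 0.0498), as a second gene beside Psat1. The low WT values are those of replicates 3 and 4, the arrays with the narrowest distributions (interquartile ranges of 3.97 and 3.74, against 4.31 to 4.44 on the other 6). Without them the difference was 0.33, and the part of array quality in the Psph difference was not tested.

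Shmt2 and Mthfd2 carry the serine carbon into mitochondrial folate. Shmt2, the serine hydroxymethyltransferase of mitochondria, had values of 8.77, 9.02, 8.20 and 8.78 in TrxR1/Gsr-null replicates 1 to 4, against 9.36, 9.42, 8.79 and 9.14 in WT replicates 1 to 4. The groups overlap only where null replicate 2 exceeds WT replicate 3, and all 4 same-numbered pairs were lower in the null animal, with differences of -0.59 to -0.37. The difference was -0.49 ± 0.23 (SE), 95% interval -0.99 to 0.02, with adjusted p = 0.238, and it was negative at all 4 Shmt2 probe sets, from -0.54 to -0.23, of which the faintest exceeded 3.38 on 1 array. Mthfd2, which oxidizes methylene-tetrahydrofolate, did not pass 3.38 on any array at either of its probe sets, with values of 2.63 to 3.13 in the null livers and 2.31 to 2.79 in WT.

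Because array scaling cancels in the difference of 2 genes on the same array, 5 pairs of members were compared, 4 with Psat1 and 1 of Trib3 with Atf4, by an exact permutation test over the 70 ways to split 8 arrays. The log2 difference of Psat1 minus Shmt2 was 2.56 larger in the null livers than in WT, that of Psat1 minus Atf4 was 2.38 larger and that of Psat1 minus Atf5 was 2.35 larger. Each had a two-sided exact p of 0.0286, the smallest the design allows, and 0.0358 after adjustment over the 5 pairs. The deviations of same-numbered animals correlated at 0.21 to 0.37, though the labels do not pair the animals. Swaps within same-numbered pairs alone allow 16 arrangements and no two-sided p below 0.125, which each of these 3 differences had. With the other bright Atf4 probe set Psat1 minus Atf4 was 1.65 larger, the groups overlapped and exact p was 0.0571. Psat1 minus Psph was 1.02 larger, with exact p = 0.2. The genes were chosen with results of these arrays known, so these values describe the pattern and add no independent evidence for it. Psat1 in WT stood only a little above the low-value limit, so the sizes of the Psat1 differences rest on WT values near background.

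**Figure D2:**
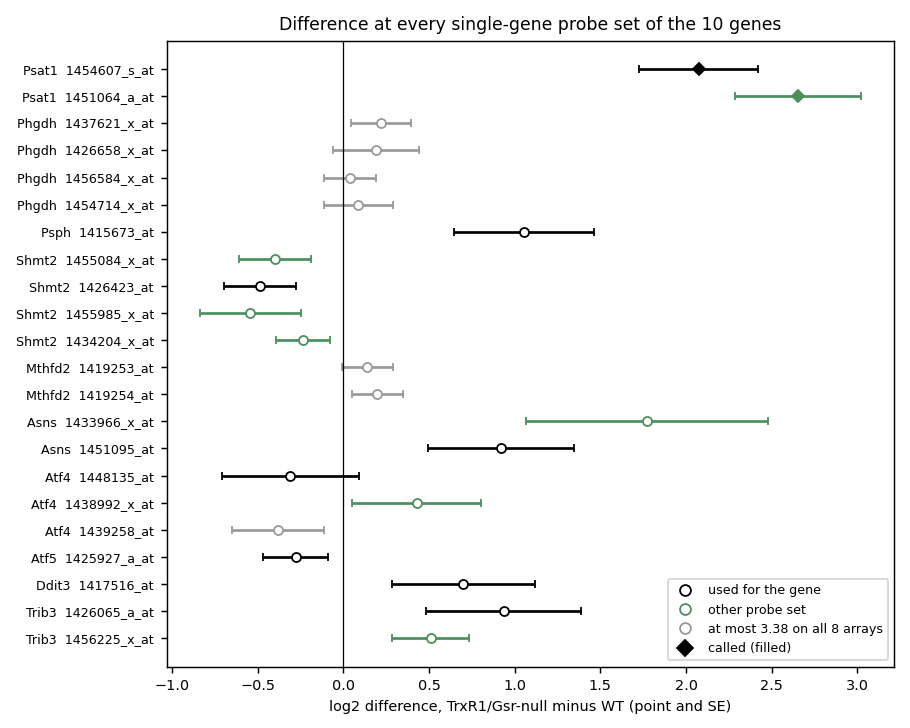
Log2 difference, TrxR1/Gsr-null minus WT, with its SE (horizontal axis), at each of the 22 single-gene probe sets of the 10 genes. The 2 Psat1 probe sets (filled) were called, the 4 of Shmt2 lie below 0, and the 2 brighter Atf4 probe sets lie on opposite sides of 0.

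Asns, which makes asparagine from aspartate and glutamine and is a classic ATF4 target, was not called, with 1 WT liver among the high values. At the probe set used for the gene its values were 4.04, 3.89, 4.13 and 5.50 in TrxR1/Gsr-null replicates 1 to 4, against 4.54, 3.01, 3.31 and 3.02 in WT replicates 1 to 4. WT replicate 1 lies above null replicates 1 to 3, and the other 3 WT values lie below the low-value limit. The difference was 0.92 ± 0.42 (SE), 95% interval -0.02 to 1.87, with adjusted p = 0.232. The other probe set had 5.31, 5.43, 5.78 and 6.49 in the null livers, against 6.47, 3.28, 3.28 and 2.88 in WT, so that WT replicate 1 was as high as the highest null liver. Without WT replicate 1 the difference of the gene was 1.28, without TrxR1/Gsr-null replicate 4 it was 0.55, and it was not called in either case.

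WT replicate 1 was also the WT array with the highest value of all 7 tested markers of dividing cells and of all 5 tested stellate and fibroblast markers, a place it held for 37.4% of genes tested. Its summed log2 values were the highest in WT for endothelial (35.6) and erythroid (9.38) markers too, the latter with 2 genes on the array and 1 tested. They were not the highest in WT for macrophage (48.3, against up to 50.8), bile duct (12.7, up to 13.8) or pancreas (8.4, up to 9.8) markers. For hepatocyte markers WT replicate 1 had the lowest sum in WT (105.5). Mki67, the marker of cycling cells, had 6.85, 7.13, 7.53 and 7.43 in TrxR1/Gsr-null replicates 1 to 4, against 8.43, 5.33, 4.24 and 5.38 in WT replicates 1 to 4. Summed log2 values of the 7 markers of dividing cells ran from 43.7 to 46.9 in the null livers and from 30.6 to 51.3 in WT. All 7 differences were positive, with a median of 1.11 (0.945 after quantile normalization). That median was 0.81 for the 8 tested members and 0.096 over all genes tested. Of the 7 markers 1, Rrm2, was called higher in the null livers. The part of these cell types in the Asns values was not tested.

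**Figure D3:**
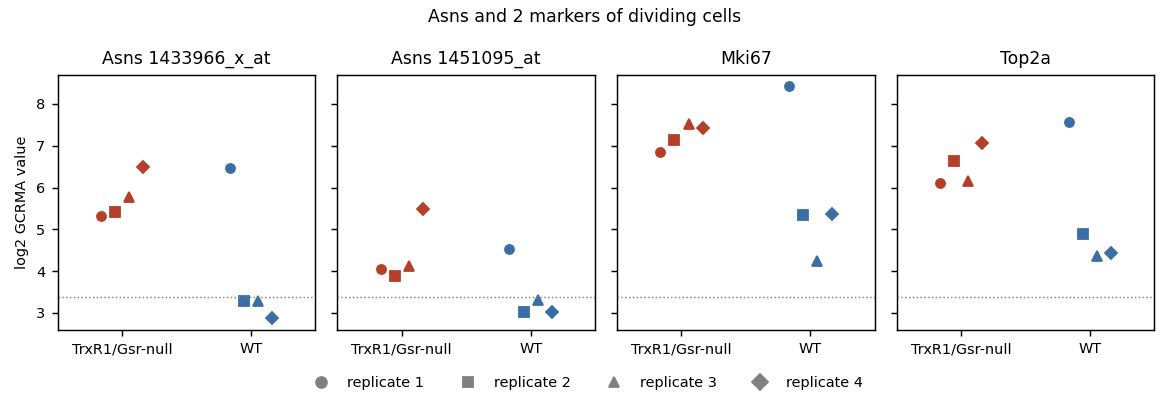
Log2 GCRMA values (shared vertical axis) of the 2 Asns probe sets and of the division markers Mki67 and Top2a on the 4 TrxR1/Gsr-null arrays (red, left) and the 4 WT arrays (blue, right), with marker shape giving the replicate and a dotted line at 3.38. WT replicate 1 (circle) stands above the other 3 WT arrays in all 4 panels.

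The mRNA of Atf4, the factor itself, did not differ between the groups beyond its spread, and its probe sets disagreed in sign. The probe set used for the gene had 8.21, 8.36, 8.75 and 10.10 in TrxR1/Gsr-null replicates 1 to 4, against 8.95, 8.73, 9.21 and 9.76 in WT replicates 1 to 4. Null replicate 4 was the highest array and null replicates 1 and 2 were the lowest. The difference was -0.31 ± 0.40 (SE), 95% interval -1.20 to 0.58, with adjusted p = 0.701, and it was -0.72 without null replicate 4. The second probe set gave 9.53, 9.13, 8.30 and 9.75 in the null livers, against 8.99, 9.22, 8.97 and 7.80 in WT, a difference of 0.43. The third lay at 3.36 or less on all arrays.

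Atf5, a close relative of Atf4 and one of its targets, was narrowly spread in WT. It had 9.53, 9.16, 8.81 and 9.60 in TrxR1/Gsr-null replicates 1 to 4, against 9.59, 9.41, 9.67 and 9.55 in WT replicates 1 to 4. Null replicates 2 and 3 were the lowest arrays, and the difference of -0.28 had a 95% interval of -0.74 to 0.18 and adjusted p = 0.463.

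Ddit3 and Trib3 stood high in a single null liver. Ddit3 had 4.11, 4.46, 3.82 and 6.00 in TrxR1/Gsr-null replicates 1 to 4, against 4.19, 4.07, 3.59 and 3.73 in WT replicates 1 to 4. Trib3 had 4.77, 5.22, 5.23 and 7.15 in the null replicates, against 4.83, 4.97, 4.24 and 4.59 in the WT replicates. For both genes null replicate 4 stood more than 1 log2 unit above every other array, and null replicate 1 lay below WT replicate 1. The Ddit3 difference was 0.70 ± 0.42 (SE; 95% interval -0.22 to 1.62; adjusted p = 0.356) and the Trib3 difference 0.94 ± 0.45 (SE; 95% interval -0.06 to 1.93; adjusted p = 0.250). Without TrxR1/Gsr-null replicate 4 they were 0.23 and 0.42. The second Trib3 probe set showed the same array highest, at 4.72 against 3.82 to 3.95 in the other null livers.

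TrxR1/Gsr-null replicate 4 was the highest of the null arrays for 6 of the 8 tested genes, against 25.1% of all genes tested (0.571% had it set apart above its group by Dixon's criterion), and the highest of all 8 arrays for 5 of the 8, against 13.0%. The exceptions were Psph and Shmt2, both highest among the null livers in replicate 2. In this liver Psat1 stood 3.27 above its same-numbered WT animal, Trib3 2.56, Asns 2.47 and Ddit3 2.27, and Atf4 0.34. The log2 difference of Psat1 minus Atf4 was -3.02 ± 0.26 in the null livers, against -5.40 ± 0.45 in WT (SD, n = 4 each). That of Trib3 minus Atf4 was -3.26 ± 0.26 in the null livers and -4.50 ± 0.67 in WT, which differed by 1.24 (exact permutation p = 0.0286; 0.0358 after adjustment over the 5 pairs; 0.125 by swaps within pairs). With the other bright Atf4 probe set the difference of Trib3 minus Atf4 was 0.51, the groups overlapped and the exact permutation p was 0.371.

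The other ATF4 target genes, a list that shares no member with the 10, were often highest in the same liver, and some, such as Slc6a9 and Herpud1, also belong to lists described below. Of 38 genes on the list 35 were on the array and 28 were tested, with 1 called higher, 1 called lower and a median difference of 0.37, against 0.096 over all genes tested. Without TrxR1/Gsr-null replicate 4 that median was 0.23. The count called higher was 3 with the replicate block or with the mean of probe sets, and 4 with array weights. Over all genes the block called 454 higher, the mean of probe sets 393 and array weights 578, against 337 in the main test. Null replicate 4 was the highest of the null arrays for 19 of the 28 and the highest of all 8 arrays for 16. Fgf21, a hormone of fasting and mitochondrial stress, had 4.35, 4.78, 4.33 and 9.13 in TrxR1/Gsr-null replicates 1 to 4, against 3.82, 1.66, 2.24 and 2.11 in WT replicates 1 to 4. Its groups did not overlap and its difference of 3.19 ± 0.97 (SE) was not called (adjusted p = 0.0834). Without null replicate 4, the array with the high value, the difference was 2.03 and was called (adjusted p = 0.0422). The Fgf21 values of WT replicates 2 to 4 lay below the low-value limit, so the sizes of both differences rest on values near background. Atf3, an early stress factor that pairs with ATF4, had 3.39, 3.71, 3.88 and 6.14 in the null livers, against 3.06, 3.23, 2.59 and 2.55 in WT, and was not called (adjusted p = 0.137). Its difference of 1.42 was 0.80 without null replicate 4, and all its WT values lay below the low-value limit. Chac1, which degrades glutathione, stood at 5.80 in null replicate 4, against 3.50 to 4.10 in the other null livers and 3.02 to 3.95 in WT. Hmox1, the inducible heme oxygenase, which answers to several stress factors, stood at 8.05 there, against 3.87 to 4.64 in the other null livers and 3.29 to 4.88 in WT. Its difference of 1.45 was 0.52 without that array. Fgf21, Atf3 and Hmox1 were named after their values were seen.

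**Figure D4:**
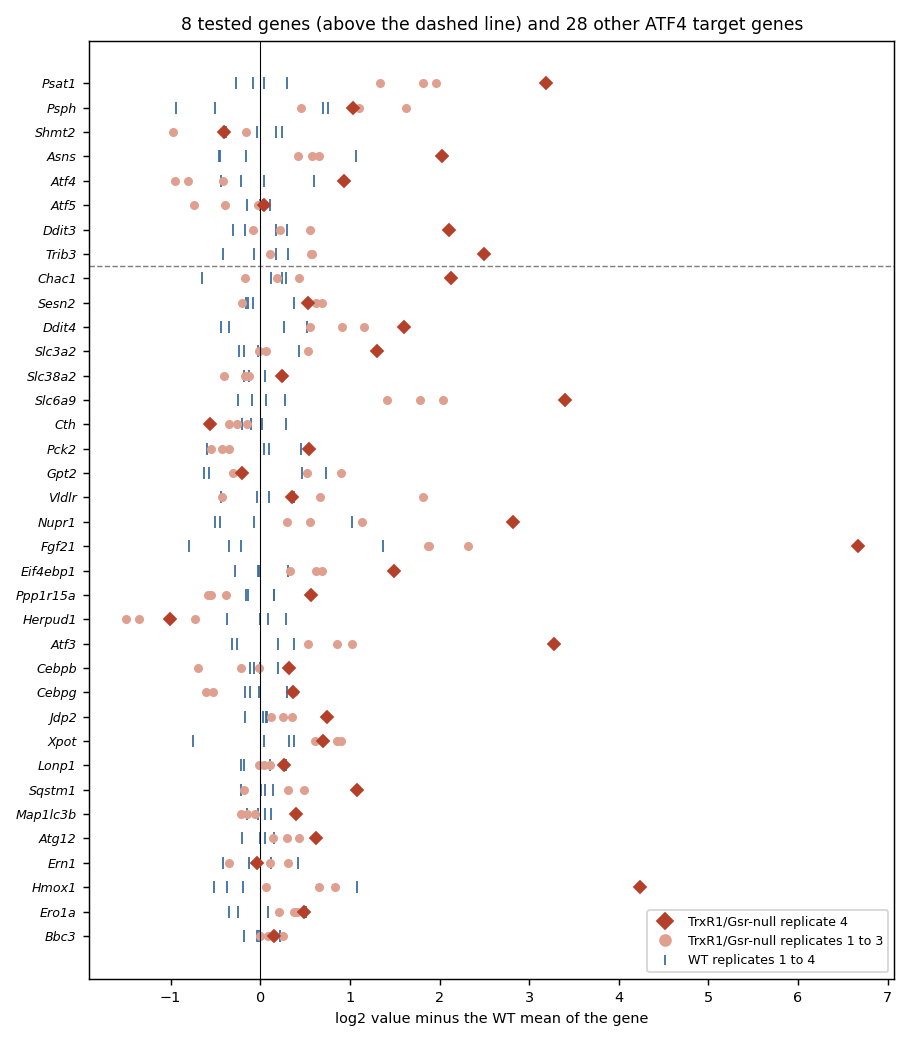
Log2 value minus the WT mean of the gene (horizontal axis) for the 8 tested genes, above the dashed line, and 28 other ATF4 target genes, below it, with TrxR1/Gsr-null replicate 4 as red diamonds, the other 3 null arrays as pale circles and the 4 WT arrays as blue ticks. Replicate 4 lies to the right of the other null arrays for 6 of the 8 genes and for 19 of the 28, most widely for Fgf21, whose log2 value there was 9.13.

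Macrophage marker sums were also highest in that liver among the null arrays, at 48.9 against 45.0 or more in the others and 46.7 to 50.8 in WT, and so was the summed level of the dividing-cell markers, at 46.9. Their part was not tested. Its array median of 3.72 and interquartile range of 4.38 lay within those of the other null arrays (3.66 to 3.78 and 4.31 to 4.44). Its Txnrd1 value of 11.96 lay among those of the other null livers (11.65 to 12.07). Its Gsr value of 6.31 lay above theirs (5.82 to 6.02) and below every WT value.

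Of the 28 ATF4 targets tested 1 was called higher and 1 lower, near the shares of 4.47% and 2.15% over all genes tested. Slc6a9, the glycine transporter GLYT1, rose in the null livers, with 6.71, 6.96, 6.34 and 8.32 in TrxR1/Gsr-null replicates 1 to 4, against 4.67, 4.99, 4.82 and 5.20 in WT replicates 1 to 4. Its groups did not overlap and the difference was 2.16 ± 0.37 (SE), 4.47-fold, with adjusted p = 0.00779. Herpud1, which takes part in degradation from the endoplasmic reticulum, fell 2.22-fold, with means of 9.83 ± 0.35 in the null livers and 10.98 ± 0.28 in WT (SD, n = 4 each; adjusted p = 0.0156, a call lost at 0.0510 when TrxR1/Gsr-null replicate 1 was left out). Among the first of the list, Chac1 (0.64, and 0.15 without null replicate 4), Sesn2 (0.41) and Ddit4 (1.06) were not called, though Ddit4 was with the replicate block (adjusted p = 0.0459).

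Serine and glycine handling outside the synthesis chain held 4 called genes of 22 tested, 3 higher and 1 lower, against 4.47% and 2.15% of all genes tested. The median difference was 0.06 (-0.00295 after each array was centred on its median). Besides Slc6a9, Slc1a4, the neutral amino acid carrier ASCT1 that takes up serine and alanine, rose 3.32-fold. Its values were 7.96, 7.41, 7.86 and 8.54 in the null livers, against 5.39, 5.77, 6.78 and 6.91 in WT, with no overlap (adjusted p = 0.0214). That call was lost without TrxR1/Gsr-null replicate 1 or 4 or WT replicate 2 (adjusted p up to 0.0623). Srr, the serine racemase, rose 1.81-fold, with means of 8.26 ± 0.24 in the null livers and 7.40 ± 0.05 in WT (SD, n = 4 each; adjusted p = 0.0184, a call lost at 0.0564 when TrxR1/Gsr-null replicate 4 was left out). Dmgdh, the mitochondrial dimethylglycine dehydrogenase, which hands a one-carbon unit to folate, fell 2.07-fold, with 10.41, 10.26, 10.38 and 10.06 in the null livers, against 11.36, 11.50, 11.22 and 11.24 in WT (adjusted p = 0.00525). The cytosolic enzymes Shmt1 (0.08) and Mthfd1 (-0.23) and the folate enzyme Ftcd (-0.45, adjusted p = 0.151) were not called, the last with every null value below every WT value. The related Sardh (-0.73, adjusted p = 0.102) and Agxt (-0.80, adjusted p = 0.0894, and 0.0402 with the replicate block), each below every WT value in all 4 null livers, were not called in the unblocked test either and were named after their values were seen. Groups that did not overlap numbered 5 higher and 4 lower among the 22, against 10.7% and 5.84% of all genes tested.

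**Figure D5:**
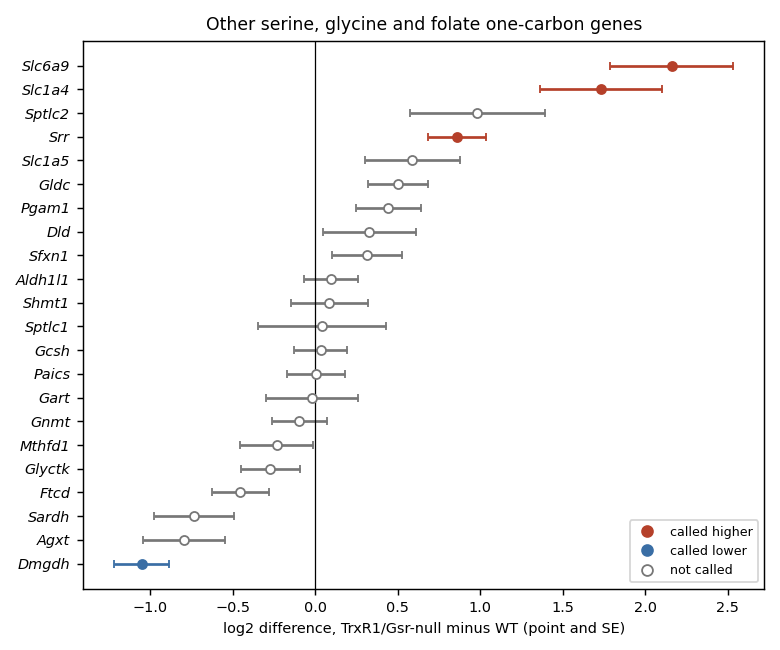
Log2 difference, TrxR1/Gsr-null minus WT, with its SE (horizontal axis), for the 22 tested serine, glycine and folate genes outside the 10. Slc6a9, Slc1a4 and Srr (red) were called higher and Dmgdh (blue) was called lower.

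The cytosolic aminoacyl-tRNA synthetases, many of them known ATF4 targets, had no call among 18 tested by limma, against 6.62% of all genes tested. Of the 18 differences 17 were positive (16 after quantile normalization), with a median of 0.33 (0.18 after quantile normalization). An unadjusted p below 0.05 was found for 2 of the 18, against 22.9% of all genes tested (Iars at 0.61 and Rars at 0.48), and Iars alone had groups that did not overlap. The first of the list, Aars (0.14), Cars (-0.0046) and Eprs (0.31), were not called. Null replicate 1 was the highest null array for 8 of them and null replicate 4 for 7. Among the WT arrays, replicates 1 and 2 were the highest for 10 and 6 of the 18. WT replicates 3 and 4, the arrays with the narrowest distributions, were the highest for 2 and 0, against 15.5% and 19.5% of all genes tested. The part of these 2 arrays in the synthetase differences was not tested.

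Of the eIF2α kinases, phosphatases and initiation factors 1 of 17 tested was called, with a median difference of 0.16. Over all genes tested 6.62% were called. The kinases Eif2ak1 (-0.24), Eif2ak2 (-0.09) and Eif2ak3 (0.30) were not called, and kinase activity is not seen in mRNA. The called gene was Impact, which restrains the amino-acid-sensing kinase GCN2, at 6.94, 7.35, 5.62 and 7.80 in the null livers, against 5.50, 5.24, 4.69 and 4.25 in WT. It rose 4.02-fold (adjusted p = 0.0256), a call lost without TrxR1/Gsr-null replicate 1, 2 or 4 or WT replicate 3 or 4 (adjusted p up to 0.0758).

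Of 21 tested leucine zipper factors of the same families, none was called higher and 2 were called lower, against 4.47% and 2.15% of all genes tested. The median difference was -0.10. Both called genes are circadian factors, Dbp, 4.44-fold lower, and Tef, 2.83-fold lower. The Dbp call (adjusted p = 0.0341) was lost without TrxR1/Gsr-null replicate 1 or 3 or WT replicate 1 or 3 (up to 0.0990), and with the replicate block (0.0591). The Tef call (adjusted p = 0.0296) was lost without TrxR1/Gsr-null replicate 1, 2 or 3 or WT replicate 3 or 4 (up to 0.0921). Cebpa (-0.46), Cebpb (-0.15) and Cebpd (0.06) were not called, and null replicate 4 was the highest null array for 11 of the 21. Without that array the median was -0.28.

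In other branches of the unfolded protein response, 1 of 20 tested genes was called higher and 1, Herpud1, lower, with a median of 0.10. Over all genes tested these shares were 4.47% and 2.15%. The higher gene was Dnajb9, a co-chaperone of the endoplasmic reticulum, at 1.93-fold (adjusted p = 0.0187, a call lost, at up to 0.0595, if either TrxR1/Gsr-null replicate 1 or 2 was dropped). The chaperone genes Hspa5 (0.29) and Hsp90b1 (0.18) and the factor gene Xbp1 (0.03) were not called. Null replicate 4 was the highest null array for 1 of these 20 genes. In the mitochondrial unfolded protein response none of 11 tested genes was called by limma (6.62% over all genes tested), and the median was 0.11. An unadjusted p below 0.05 was found for 2 of the 11 (Hspe1 at 0.43 and Fgf21), against the same 22.9%. Hspd1 (0.04) and Hspa9 (0.22) were not called.

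Genes most like Psat1 over the 8 arrays were found by Pearson correlation of log2 values, as a description in which the genotype difference is shared by all. The first 5 were Uap1l1, Gclm, Tmprss2, Anxa7 and Fgfbp1, with r from 0.972 to 0.982, and 0.856 to 0.909 after the group means were taken out. Gclm, the modifier subunit of glutamate-cysteine ligase, differed by 0.88 (adjusted p = 0.0233), and all 5 were called higher, by up to 2.39 log2 units. The choice by r with Psat1, whose groups did not overlap, favours genes that are higher in the null livers. These calls and both ranges of r therefore add no independent evidence.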

How the data were processed

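Liver RNA of 4 TrxR1/Gsr-null and 4 WT mice was measured on 1 array each. The deposited table gives log2 values made by the authors with GCRMA, per the submitters' processing notes (version and settings: not given in the sources used here), and the range of the values shows the log2 scale. Arrays give no sampling depth, and their number limits the precision.

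Symbols were updated through identifiers in a RefSeq table (GRCm38.p6; 20351 of 20380 single-gene probe sets matched). Per gene the single-gene probe set with the highest mean was used, _x_at set aside if another kind existed. The lowest 40% of genes by mean (up to 3.38) were dropped, save 98 that exceeded the limit on 4 or more arrays. The test was limma 3.58.1 under R 4.3.3 (two-sided, no covariates, Benjamini-Hochberg over 7534 genes, or over 22626 probe sets without the filter), tested on simulated data. Same-numbered animals' deviations correlated at 0.21 to 0.37 in all 4 pairs, so the replicate number was used as a block in an alternative fit. The labels do not pair the animals, so calls under the block depend on a pairing that the labels do not give.

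The members and lists were chosen with earlier results of these data known. Named were the members, the targeted genes, the called genes of each list (at most 6 per direction), its first 3 uncalled genes and the 5 genes most like the member with the smallest adjusted p. Alternatives changed the filter, probe sets, scaling, weights, prior, block and arrays used. No 2 arrays were identical. After the data were seen, the block and the fit without TrxR1/Gsr-null replicate 4 were extended to every list gene, and the gene pairs were repeated with another Atf4 probe set and with swaps within pairs.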

Additional observations from a re-analysis of the deposited data

Results flagged for a closer look

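Within a group of 4 arrays, a highest or lowest value was singled out when its gap to the next, divided by the range of the group, exceeded Dixon's critical value. Of 368 groups examined, over the member probe sets and every tested gene of every list, 24 were singled out, and chance alone gives about 1 in 20, or 18.4. In TrxR1/Gsr-null replicate 4 the high ones were Asns at its first probe set (5.50, others 3.89 to 4.13, ratio 0.852), Trib3 at its second probe set (4.72, others 3.82 to 3.95, ratio 0.857), Mthfd2 (3.13, others 2.66 to 2.71, ratio 0.89, all below the low-value limit), Fgf21 (9.13, others 4.33 to 4.78, ratio 0.906) and the eIF2α phosphatase subunit gene Ppp1r15a (4.19, others 3.04 to 3.23, ratio 0.832). So were Jun, a leucine zipper factor (7.45, others 4.84 to 5.08, ratio 0.908), and the bile duct marker Sox9 (3.81, ratio 0.931), while the chaperone gene Dnajc3 was low there (10.01, others 10.61 to 10.72, ratio 0.837). Over all genes tested 0.571% had replicate 4 set apart above its group in this way. In the other null livers, replicate 1 was low for the synthetase Gars (8.09, ratio 0.881) and the eIF2 subunit Eif2s2 (10.48, ratio 0.934), and replicate 3 was high for the chaperone gene Dnajb11 (7.47, ratio 0.924).

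In WT replicate 1 the high ones were Asns at its second probe set (6.47, others 2.88 to 3.28, ratio 0.888), the sestrin gene Sesn2 (4.25, others 3.72 to 3.80, ratio 0.86) and Top2a, a topoisomerase of dividing cells (7.57, others 4.36 to 4.89, ratio 0.833), and Gsr was low (7.03, others 7.20 to 7.21, ratio 0.95). WT replicate 2 was high for Fos (7.13, others 3.64 to 4.14, ratio 0.855), and WT replicate 3 for Hsp90b1 (12.34, ratio 0.875) and the hepatocyte marker Ttr (13.74, ratio 0.883). WT replicate 4 was high for Eif2b2 (5.35, ratio 0.869) and Sel1l (8.26, ratio 0.867). It was low for Farsb (5.74, ratio 0.834), Gars (7.06, ratio 0.913), Creld2 (6.43, ratio 0.84) and Txnrd1 (9.56, others 9.88 to 9.93, ratio 0.868).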

How the results depend on the processing

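With each of the 8 arrays left out in turn, 1 of the 10 genes stayed called higher and 0 lower, and the pathway lists together held 2 to 6 genes called higher (5 with all arrays) and 1 to 4 lower (4). Over all genes 196 to 387 were then called higher (337) and 75 to 134 lower (162). Psat1 was the gene called wherever 1 of the 10 was called. None was called with a stricter low-value filter (0), without probe sets of several transcripts (0; both settings leave Psat1 untested) or in replicates 3 and 4 only (0), and 2 were called with the replicate block. Among the tested members and genes of the pathway lists, the replicate block added calls for Psph, Ddit4, Eif4ebp1, Agxt and Jund, lost that of Dbp, and changed no other. Under it 454 genes were called higher and 240 lower. The lists held 9 higher and 9 lower with array weights, 3 higher without WT replicates 3 and 4, and 1 higher and 0 lower in replicates 3 and 4 only. Over all genes, array weights gave 578 higher and 428 lower, quantile normalization 272 lower, the fit without WT replicates 3 and 4 187 higher, and replicates 3 and 4 only 162 higher and 30 lower. Quantile normalization moved the median difference of all genes to -0.0117, against 0.0959 as deposited. The Atf4 difference reversed to 0.014 without WT replicates 3 and 4, and the cause was not tested. Of 372 recomputed differences of 19 named genes, 329 kept direction and side of the threshold, 41 lost the call, 1 gained it and 1 reversed. GCRMA values near 3.38 or below carry little signal over background, which leaves Phgdh and Mthfd2 unmeasured here. The WT values of Psat1 lay only a little above this limit, so the size of its difference rests on values near background.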
